A study of Xenopus laevis with 2 samples.

Results

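The epidermal transcription factors described here are 10 regulators of the outer ectoderm and skin: the AP-2 factors TFAP2A, TFAP2B and TFAP2C, TP63, the grainyhead-like factors GRHL1, GRHL2 and GRHL3, the Krüppel-like factors KLF4 and KLF5, and the zinc finger factor OVOL1. They were taken by symbol from the deposited table, in which Xenopus laevis gene models carry human gene symbols. Of the 10 symbols, 9 were found, with 20 of the 24364 models. Polyadenylated RNA had been sequenced from animal caps, pieces of the embryo's upper ectoderm, of Xenopus laevis embryos injected with RNA for xnr2 when they had 2 to 4 cells. Xnr2 is a secreted signal of the Nodal class. Caps were cut at stage 10, cultured, and collected at stage 14, the neural plate stage, and RNA came from pools of 10 explants. The labels name 2 libraries, numbered 1 and 3, and put both in 1 group, so that both carry xnr2 and no control caps enter any statement. The sources used here do not give the share of cap cells that received the RNA, nor whether the pools came from separate clutches. The p-values below set the difference between these samples, which may be technical, against counting error only. They make no allowance for the spread between samples.

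Epidermis is what animal cap cells form when they are left alone, under the cells' own BMP signals. AP-2 factors act early in this path: in Xenopus, TFAP2A takes part in switching on epidermal keratin genes and also in forming the neural crest. TP63 keeps the basal cells of the epidermis, GRHL factors control epithelial junction and barrier genes, and KLF4, KLF5 and OVOL1 are known mainly from mouse skin and other epithelia. Nodal signals turn cap cells towards mesoderm and endoderm. Levels here describe caps that had received xnr2, and are not a response to it.

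Library 3 held 29238297 exon reads and library 1 held 25880104. Levels are given as reads per 1000000 exon reads (CPM) and, where genes are compared with each other, per kilobase of exon as well (RPKM). A count of 0 allows up to 3 reads, which is 0.103 CPM in library 3 and 0.116 CPM in library 1. This floor and all intervals below cover counting error only. The table names models of different Xenopus genes by 1 human symbol, so that each model is given with its chromosome on genome assembly version 9.1. None of the 20 models overlapped another model (0 overlaps). Reads of near-identical L and S copies, the homeologs of this tetraploid frog, may have been split between them or lost. Reads of the libraries were compared by an exact two-sided binomial test, with Benjamini-Hochberg adjustment over all 18820 models with 10 or more reads in both together. A model was called when its adjusted p was under 0.05 and its log2 ratio of library 3 over library 1, on CPM + 0.1, was 1 or more in size. This test compares the libraries, not conditions, and folds in the text are without the added 0.1.

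The epidermal factors were present at low levels, with GRHL2 as the exception. Of their 20 models, 8 reached 1 CPM in both libraries (40.0%), against 62.8% of all models. With each library counted by itself, whatever the other showed, 9 models did in library 3 and 14 in library 1. A level of 10 CPM in both libraries was reached by 1 of the 20 (the GRHL2 model on 6L), against 37.1% of all models. A single model had 0 reads in both libraries (KLF4 on 1S), as did 9.26% of all models, and the other 19 had 10 or more reads, as did 77.2% of all models. The median over the 20 models was 1.78 CPM, against 4.53 CPM over all models, and per length of exon it was 0.404 RPKM, against 1.91 RPKM over all models. The median level was 0.941 CPM in library 3 and 2.24 CPM in library 1. All 20 together took 41.6 CPM (1217 reads) in library 3 and 70.4 CPM (1821 reads) in library 1. GRHL2 alone gave 55.2% of these reads in library 3 (95% Wilson interval 52.4 to 58.0%) and 40.1% in library 1 (37.9 to 42.4%). In such bulk samples fewer epidermal cells and less RNA per cell cannot be told apart.

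**Figure D1:**
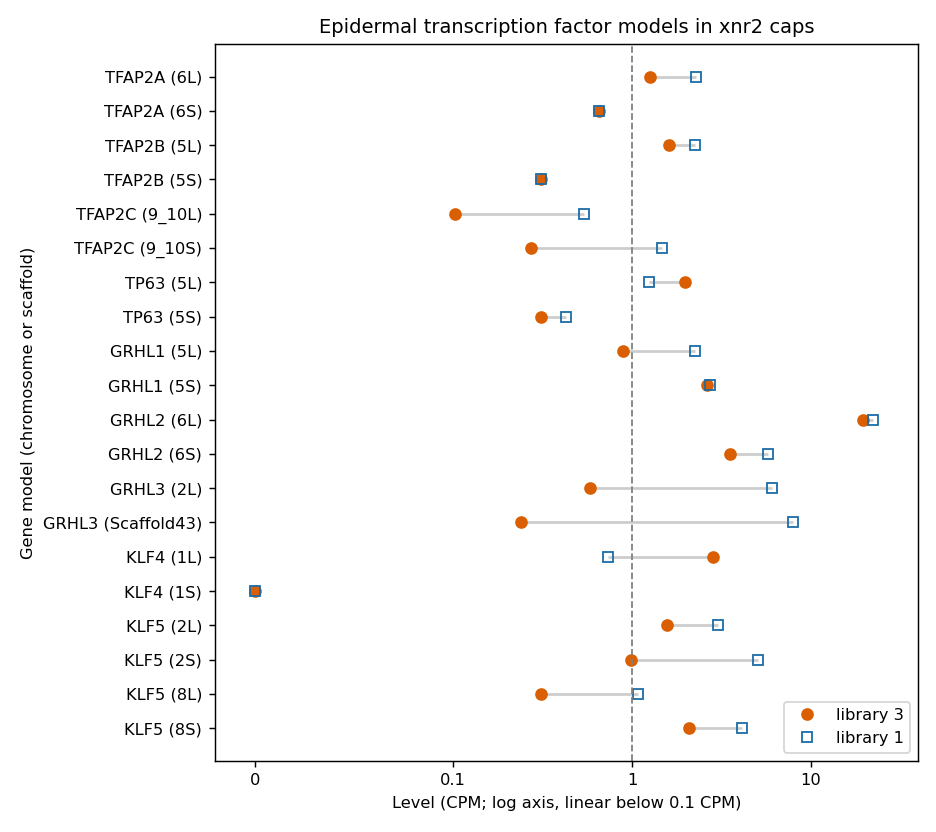
Level of each of the 20 models (rows, named by symbol and chromosome) in library 3 (filled circles) and library 1 (open squares), in CPM on an axis that is logarithmic above 0.1 CPM. The dashed line marks 1 CPM. GRHL2 on 6L stands alone near 20 CPM in both libraries, most models lie between 0.1 and 10 CPM, and the squares lie to the right of the circles for most of them.

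The AP-2 factors, which bind DNA as dimers and act in epidermis and neural crest, were low in both libraries. TFAP2A had 37 reads (1.27 CPM) in library 3 and 59 reads (2.28 CPM) in library 1 for its model on 6L (88808963 to 88821402). Its model on 6S (62514860 to 62529102) had 19 reads (0.650 CPM) in library 3 and 17 reads (0.657 CPM) in library 1. The S model had like levels in both, with a ratio that counting error alone leaves between 2.05-fold lower and 2.02-fold higher in library 3, while the L model was 1.80-fold lower in library 3 (95% exact interval 1.17 to 2.80). TFAP2B had 47 reads (1.61 CPM) in library 3 and 58 reads (2.24 CPM) in library 1 on 5L (150149791 to 150180284). On 5S (129413374 to 129434952) it had 9 reads (0.308 CPM) in library 3 and 8 reads (0.309 CPM) in library 1. TFAP2B passed the threshold on neither chromosome: in library 3 it was 1.39-fold lower on 5L (0.933 to 2.09, adjusted p = 0.155) and 1.00-fold lower on 5S (0.337 to 2.93, adjusted p = 1.0, exact binomial test). TFAP2C, which in mouse also serves the trophoblast and germ cells, stood apart from both. Its model on 9_10S (12201181 to 12216562) had 8 reads (0.274 CPM) in library 3 and 38 reads (1.47 CPM) in library 1. Its model on 9_10L (13524721 to 13537933) had 3 reads (0.103 CPM) in library 3 and 14 reads (0.541 CPM) in library 1. Both copies of TFAP2C were therefore lower in library 3, by 5.37-fold (2.47 to 13.3) on 9_10S and by 5.27-fold (1.47 to 28.6) on 9_10L, and in library 3 the L copy stood at the floor.

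TP63, the factor of the basal epidermal layer, was low in both libraries. Its model on 5L (100162007 to 100205364) had 58 reads (1.98 CPM) in library 3 and 32 reads (1.24 CPM) in library 1, a ratio of 1.60 (1.02 to 2.55) with adjusted p = 0.0627 in the exact binomial test. Its model on 5S (84502019 to 84547104) had 9 reads (0.308 CPM) in library 3 and 11 reads (0.425 CPM) in library 1, with adjusted p = 0.61 in the same exact test. No difference between the libraries passed the threshold for either model, and the intervals of both include a difference of 2-fold (on 5S, 0.520 to 3.77-fold lower in library 3). The models are long, at 4315 bp of exon on 5L and 5429 bp on 5S, so that the level per length was 0.373 ± 0.122 RPKM on 5L and 0.0675 ± 0.0153 RPKM on 5S (SD, n = 2).

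The grainyhead-like factors held the factor with the highest level per length, GRHL2, and the one that differed most between the libraries, GRHL3. GRHL2, which in mouse sustains E-cadherin and claudin expression, had 569 reads (19.5 CPM) in library 3 and 580 reads (22.4 CPM) in library 1 on 6L (132435566 to 132484373). Its model on 6S (108755378 to 108813194) had 103 reads (3.52 CPM) in library 3 and 150 reads (5.80 CPM) in library 1. The L copy differed by 1.15-fold (1.02 to 1.30) and the S copy by 1.65-fold (1.27 to 2.14), both lower in library 3. GRHL1, which in Xenopus takes part in epidermal keratin expression, had 77 reads (2.63 CPM) in library 3 and 71 reads (2.74 CPM) in library 1 on 5S (118979672 to 119006260). On 5L (137974385 to 138002115) it had 26 reads (0.889 CPM) in library 3 and 58 reads (2.24 CPM) in library 1. The S copy of GRHL1 was thus at like levels in the libraries, while its L copy was 2.52-fold lower in library 3 (1.56 to 4.17). GRHL3, which serves the epidermal barrier, wound closure and neural tube closure in mouse, was far lower in library 3. Its model on 2L (55247854 to 55264063) had 17 reads (0.581 CPM) in library 3 and 157 reads (6.07 CPM) in library 1. Its model on Scaffold43 (1455332 to 1470751) had 7 reads (0.239 CPM) in library 3 and 205 reads (7.92 CPM) in library 1. GRHL3 was lower in library 3 by 10.4-fold (6.31 to 18.4) on 2L and by 33.1-fold (15.8 to 83.3) on Scaffold43. Of the 18820 models tested, 12 had a lower ratio of library 3 over library 1 than GRHL3 on Scaffold43, and 49 had a lower ratio than GRHL3 on 2L.

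The Krüppel-like factors moved in opposite directions. KLF4, a barrier factor of mouse skin and a reprogramming factor, had 83 reads (2.84 CPM) in library 3 and 19 reads (0.734 CPM) in library 1 on 1L (118358243 to 118370230). It was 3.87-fold higher in library 3 (2.33 to 6.74), while the model on 1S (97792959 to 97805196) had 0 reads in both libraries. KLF5, a factor of gut and other epithelia, had 4 models. On 2S (109124639 to 109140609) it had 29 reads (0.992 CPM) in library 3 and 131 reads (5.06 CPM) in library 1, and on 2L (126993191 to 127009411) 46 reads (1.57 CPM) in library 3 and 78 reads (3.01 CPM) in library 1. On 8S (47568571 to 47606977) there were 61 reads (2.09 CPM) in library 3 and 107 reads (4.13 CPM) in library 1, and on 8L (14816433 to 14835960) 9 reads (0.308 CPM) in library 3 and 28 reads (1.08 CPM) in library 1. All 4 were lower in library 3, by 5.10-fold (3.39 to 7.92) on 2S, 3.51-fold (1.61 to 8.47) on 8L, 1.98-fold (1.43 to 2.76) on 8S and 1.92-fold (1.31 to 2.82) on 2L.

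The chromosome 8 models called KLF5 may not be copies of the same gene as those on chromosome 2. RefSeq, on assembly version 10.1, places klf5.L on 2L and klf5.S on 2S. Of the 19 other symbols among the 10 models on either side of the 2L model, 13 also flank klf5.L in RefSeq, and 14 of 19 do for the 2S model and klf5.S. Of the symbols flanking the models on 8L (19) and 8S (17), 0 flank either RefSeq gene. The chromosome 8 models are kept here because they carry the symbol, and sums over KLF5 are given with and without them.

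OVOL1, a repressor that in mouse ends the growth of epidermal precursors, has no model in the table under that symbol, so its level was not measured here. RefSeq version 10.1 places ovol1.L on 4L between cfl1.L and kat5.L, and the CFL1 and KAT5 models on 4L follow each other directly in the table. Its relative OVOL2, looked up after its values had been seen, had 123 reads (4.21 CPM) in library 3 and 129 reads (4.98 CPM) in library 1 on 5L. On 5S it had 42 reads (1.44 CPM) in library 3 and 33 reads (1.28 CPM) in library 1. Per length this was 2.39 ± 0.286 RPKM on 5L and 0.756 ± 0.0636 RPKM on 5S (SD, n = 2 each), and no difference between the libraries passed the threshold (adjusted p = 0.269 on 5L and 0.731 on 5S, exact binomial test).

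Per length of exon, and adding the models of each symbol, GRHL2 led in both libraries. GRHL2 stood at 9.58 ± 1.40 RPKM, ahead of KLF5 at 4.27 ± 2.48 with all 4 models, GRHL3 at 2.39 ± 3.01, GRHL1 at 1.51 ± 0.238 and TFAP2A at 1.14 ± 0.378 RPKM (SD, n = 2 each). TFAP2B followed at 0.526 ± 0.101, then TP63 at 0.441 ± 0.107, TFAP2C at 0.430 ± 0.416 and KLF4 at 0.372 ± 0.310 RPKM. The place of KLF5 rested on the chromosome 8 models: its 2L and 2S models alone gave 2.27 ± 1.46 RPKM (1.24 RPKM in library 3 and 3.30 RPKM in library 1), below the mean of GRHL3. The libraries' ranges did not overlap between GRHL2 and whichever of KLF5 and GRHL3 came next, nor between TFAP2A and TFAP2B. All other neighbours in either order overlapped and were not separated by their spread. GRHL3 stood at rank 8 of 9 in library 3 (0.262 RPKM) and at rank 3 in library 1 (4.51 RPKM; rank 2 without KLF5 on chromosome 8), and KLF4 at rank 5 in library 3 (0.591 RPKM) and rank 9 in library 1 (0.153 RPKM). Taken singly, 1 of the 20 models (GRHL2 on 6L at 7.77 RPKM, percentile 71.1 of all models) lay above the median of all models, 1.91 RPKM.

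**Figure D2:**
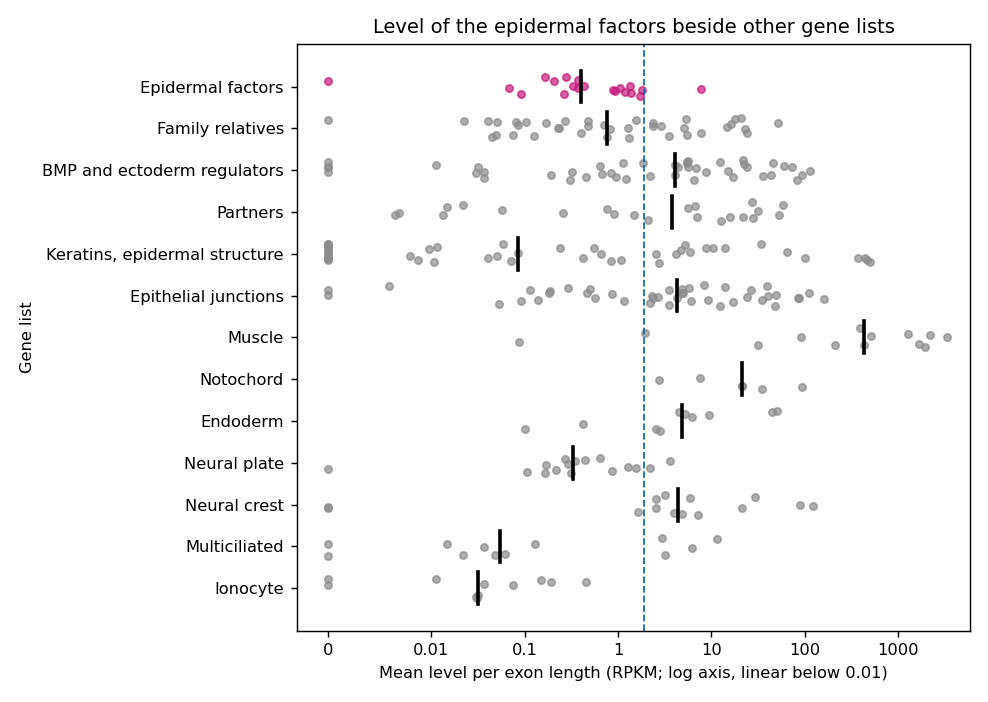
Mean level per exon length of each model (points, RPKM, axis logarithmic above 0.01) in the epidermal factors (top) and 12 other lists, with the median of each list (black bar) and of all models (dashed line, 1.91 RPKM). The epidermal factors have a median of 0.404 RPKM and lie left of the dashed line except for GRHL2 on 6L, while muscle markers lie mostly above 10 RPKM.

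How far these levels varied between the 2 libraries of xnr2 caps was asked by comparing their reads. The difference between the libraries, which may be technical, exceeded counting error for much of the transcriptome. In the exact binomial test 53.1% of all tested models had an adjusted p under 0.05 at any fold. Of the 19 tested epidermal factor models, 13 did, 12 of them lower in library 3.

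The models of GRHL3, TFAP2C and, in part, KLF5 and GRHL1 were lower in library 3, and KLF4 was higher. Of 19 tested models, 7 were called lower in library 3, against 4.09% of all tested models, and 1 was called higher, against 4.05%. The 7 were both models of GRHL3 and of TFAP2C, KLF5 on 2S and 8L, and GRHL1 on 5L, and the 1 was KLF4 on 1L. In the exact binomial test the adjusted p was 6.51e-56 for GRHL3 on Scaffold43 and 2.08e-32 on 2L, 9.4e-19 for KLF5 on 2S and 0.00123 on 8L. It was 3.38e-06 for TFAP2C on 9_10S and 0.0125 on 9_10L, 0.000202 for GRHL1 on 5L and 1.67e-08 for KLF4 on 1L. Adding the models of each symbol left 3 of 9 symbols called lower, GRHL3, KLF5 (also without its chromosome 8 models) and TFAP2C. With a minimum of 100 reads 3 of 10 models were called lower. The matching shares over all symbols, and over all models at that minimum, are not given here. In direction alone, 17 of the 19 were lower in library 3, against 45.6% of all tested models. Among the 11176 tested models that lay within the level range of these 19, 6.04% were called lower, 5.64% higher, and 47.4% were lower at any size. The median log2 ratio was -0.80, against 0.05 over all tested models. It was -0.49 over the 9 symbols when the models of each were added, and -0.53 over the models with a pseudocount of 1 CPM. In log2 ratios with the pseudocount of 0.1 CPM, the models ranged between -4.56 (GRHL3 on Scaffold43) and 1.82 (KLF4 on 1L). Models of 1 symbol share sequence and function and are not independent of each other.

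**Figure D3:**
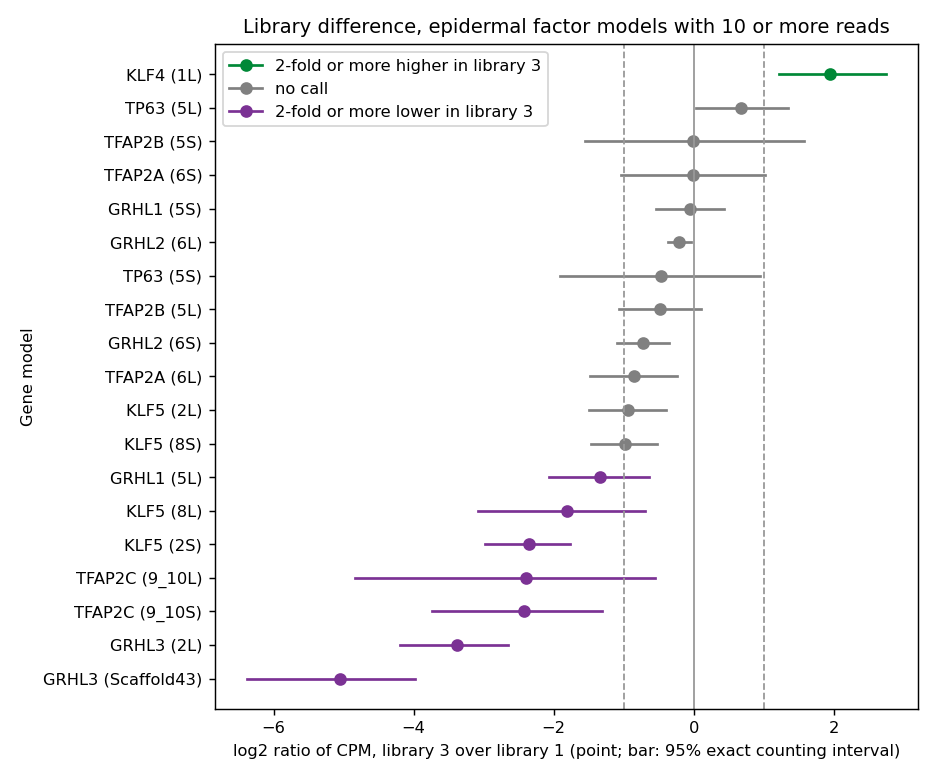
Log2 ratio of CPM, library 3 over library 1, for the 19 models with 10 or more reads, without pseudocount (points), with exact 95% counting intervals (bars) and lines at 0 and at 2-fold either way. The 7 models called lower in library 3 (purple) run down to GRHL3 on Scaffold43 at -5.05, and KLF4 on 1L (green) is the 1 model called higher, at 1.95.

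**Figure D4:**
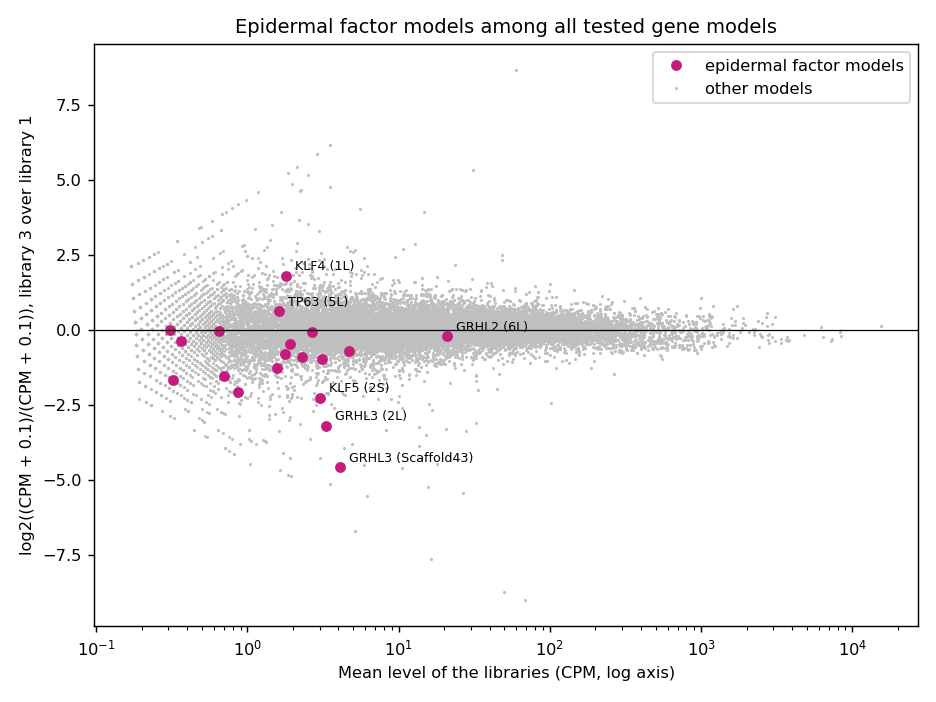
Log2 ratio with a pseudocount of 0.1 CPM (vertical axis) against the mean level of the libraries in CPM (log axis) for all 18820 tested models (grey), with the 19 epidermal factor models in colour. GRHL3 on Scaffold43 (-4.56) and on 2L (-3.18) lie at the lower edge of the grey cloud, and GRHL2 on 6L (-0.20) lies inside it.

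The L and S copies of the factors differed in level, and with no common direction. In 9 pairs both copies had 10 or more reads. In CPM, the L copy was higher in both libraries for 4 pairs (TFAP2A, TFAP2B, TP63 and GRHL2). The S copy was higher in both for 3 (TFAP2C, GRHL1 and KLF5 on chromosome 8). No counting interval was computed for L over S, and some of these differences were small in reads. TFAP2C in library 3 had 3 reads on L and 8 on S, and GRHL1 in library 1 had 58 on L and 71 on S. For GRHL2 the log2 ratio of L over S was 2.47 in library 3 and 1.95 in library 1, and for TP63 it was 2.69 in library 3 and 1.54 in library 1. For GRHL1 it was -1.57 in library 3 and -0.29 in library 1. In the remaining 2 pairs the sign of the ratio in CPM differed between the libraries. In library 3 it rested on few reads: 17 on 2L and 7 on Scaffold43 for GRHL3, and 46 on 2L and 29 on 2S for KLF5. Whether these pairs truly turned round was not tested. GRHL3 had 1.28 in library 3 and -0.38 in library 1 for the 2L model over the Scaffold43 model. That the Scaffold43 model is S was assumed, not shown: it shared 5 of 12 flanking symbols with grhl3.L, IFNLR1 among them, and 5 with grhl3.S, CYP4F22 among them. KLF5 on chromosome 2 had 0.67 in library 3 and -0.75 in library 1. Per kilobase of exon, KLF5 on chromosome 2 favoured L in both libraries (1.69 in library 3 and 0.27 in library 1), which brought the pairs with a higher L copy to 5.

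Relatives of the factors from the same families stood near the shares of all models. Of 23 symbols 19 were found, with 39 models, of which 22 reached 1 CPM in both libraries (56.4%, against 62.8% of all models). Of 34 tested models, 14 were lower in library 3 (41.2%, against 45.6% of all tested models). Among those high per length were KLF6 on 6L at 24.3 ± 4.44 RPKM and KLF8 on 8L at 23.2 ± 2.39 RPKM (SD, n = 2 each). Of the 34 models, 2 were called lower and 3 higher in library 3, against 4.09% and 4.05% of all tested models. Their median log2 ratio was 0.18. The largest calls were KLF2 on 4L, with 3 reads in library 3 and 50 reads in library 1, TFAP2E on 2L, with 49 reads in library 3 and 13 reads in library 1, and KLF2 on Scaffold21, with 155 reads in library 3 and 59 reads in library 1. TFAP2D on 5L, an AP-2 factor, had 0 reads in both.

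BMP signals and early ectoderm regulators, which act upstream of the epidermal factors, had a higher median level than the factors. Of 45 models of 13 symbols, 31 reached 1 CPM in both libraries (68.9%, against 62.8% of all models). Their median was 4.12 RPKM, against 0.404 RPKM for the factors and 1.91 RPKM over all models. The leading models were of the BMP-responsive homeobox factor VENTX, at 114 ± 40.0 RPKM (7S), 94.2 ± 29.2 RPKM and 83.7 ± 5.61 RPKM (both 7L). VENTX models held ranks 1 to 6 per length, and the median without them is not given here. Other models lay within the range of the factors, such as DLX3 on 9_10L at 1.21 ± 1.17 RPKM and FOXI1 on 1S at 0.455 ± 0.445 RPKM. Of 36 tested models 25 were lower in library 3, against 45.6% of all tested models. Of the 36, 8 were called lower and 2 higher, against 4.09% and 4.05% of all tested models. The homeobox factor DLX3 on 9_10L had 25 reads (0.855 CPM) in library 3 and 119 reads (4.60 CPM) in library 1, and FOXI1 on 1S, a factor of ionocytes and early ectoderm, had 7 reads (0.239 CPM) in library 3 and 34 reads (1.31 CPM) in library 1. The ligand BMP2 on 1L went the other way, with 413 reads (14.1 CPM) in library 3 and 112 reads (4.33 CPM) in library 1. Among partners of the factors, 15 of 22 models reached 1 CPM in both libraries (68.2%), near the 62.8% of all models. They were led by the AP-2 coactivator CITED2 on 2S (58.8 ± 13.7 RPKM) and 2L (53.0 ± 5.54 RPKM) and by the transcriptional repressor PRDM1 on 5L (31.9 ± 2.91 RPKM). Of 16 tested, 14 had an adjusted p under 0.05 at any fold in the exact binomial test, against 53.1% of all tested models. With counting error only, this share grows with read depth. PRDM1 on 5L (3839 reads in library 3 and 2986 in library 1) passed at a log2 ratio of 0.19, and CITED2 on 2L at -0.21. The share over models of like depth is not given here. In library 3, 2 were called lower and 0 higher, against 4.09% and 4.05% of all tested models. The 2 called lower were the p63 target ZNF750 on 9_10S, with 12 reads in library 3 and 27 reads in library 1, and the p63 partner PPP1R13L on 8L, with 49 reads in library 3 and 93 reads in library 1.

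Among structural genes of epithelia, the library difference was uneven. In the list of keratins and epidermal structure, 15 of 45 models reached 1 CPM in both libraries (33.3%, against 62.8% of all models). Of the 45, 13 had 0 reads, as did 9.26% of all models. Of 22 tested models 10 were called lower and 0 higher in library 3, against 4.09% and 4.05% of all tested models. The secreted lectin ITLN1 on 7L had 21 reads in library 3 and 788 reads in library 1, and the mucin-like OTOG on 7L had 22 reads in library 3 and 528 reads in library 1. A model of the keratin KRT12 on 9_10S held 13 reads in library 3 against 212 reads in library 1. The summed level of the list lay at 4049 CPM in library 3 and 3779 CPM in library 1, led by KRT8 on 2L (501 ± 62.7 RPKM), KRT18 on 2L (466 ± 14.7 RPKM) and KRT18 on 2S (439.7 ± 70.9 RPKM). Most of this sum came from KRT8 and KRT18 on chromosome 2, so it does not speak for the rest of the list. In library 3 and library 1, KRT8 had 1246 and 1043 CPM on 2L, and 928 and 666 CPM on 2S. KRT18 had 719 and 751 CPM on 2L, and 798 and 635 CPM on 2S. The median log2 ratio of the list was -0.72. In the list of epithelial junction genes 32 of 43 models reached 1 CPM in both libraries (74.4%, against 62.8% of all models). They were led by CLDN6 on 9_10L (162 ± 6.88 RPKM) and 9_10S (111 ± 6.78 RPKM) and CLDN7 on 3L (86.9 ± 10.1 RPKM). Of 38 tested, 4 were called lower and 0 higher, against 4.09% and 4.05% of all tested models, with a median log2 ratio of -0.13. The calls included both models of periplakin, PPL, with 3 reads in library 3 and 33 reads in library 1 on 9_10L, and 18 reads in library 3 and 41 reads in library 1 on 9_10S. They also included the lower of the CDH1 (E-cadherin) models on 4S, with 194 reads in library 3 and 387 reads in library 1, while the higher model on 4S had 4433 reads in library 3 and 3463 reads in library 1 and was not called. The sum of junction genes was 1741 CPM in library 3 and 1704 CPM in library 1. The higher CDH1 model on 4L alone gave 350 CPM of this in library 3 and 276 CPM in library 1. Of the 38 tested, 23 were lower and 15 higher in library 3, against 45.6% lower among all tested models, so the sum does not speak for single models.

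**Figure D5:**
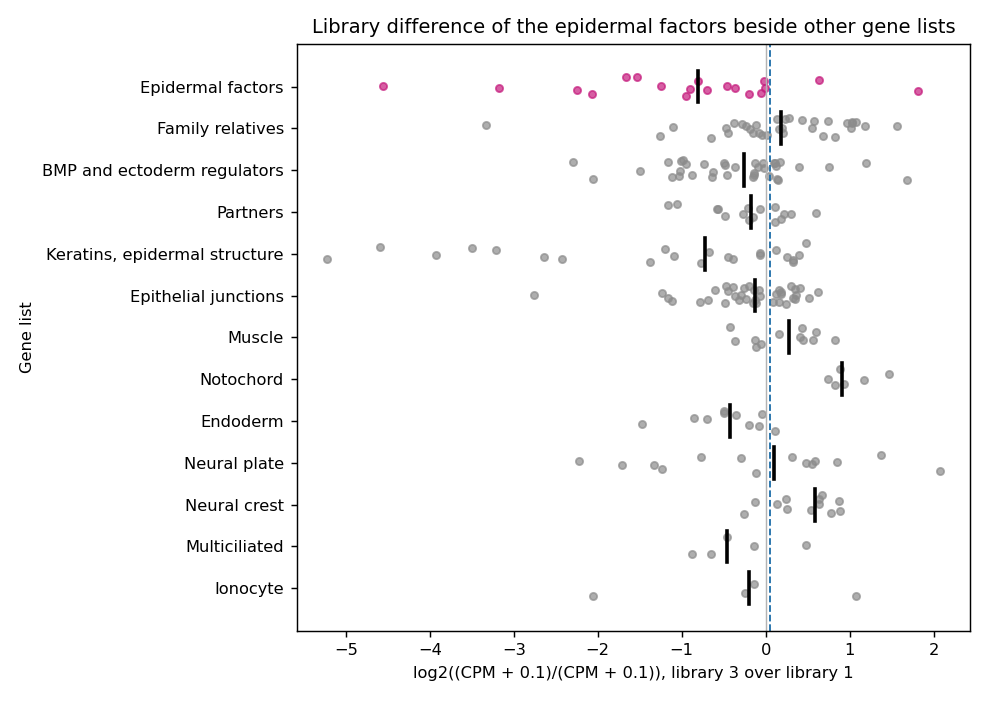
Log2 ratio with a pseudocount of 0.1 CPM, library 3 over library 1, of every model with 10 or more reads (points) in the epidermal factors (top) and 12 other lists, with list medians (black bars) and the median of all tested models (dashed line, 0.05). The epidermal factors (median -0.80) and the keratin and epidermal structure genes (-0.72) lie furthest to the left by median, and the notochord markers (0.91) furthest to the right.

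Markers of other cell types differed between the same libraries, and their part in the differences of the epidermal factors was not tested. All 6 notochord models (T, SHH and CHRD) were higher in library 3, with a sum of 767 CPM there and 417 CPM in library 1. Of the 6, 2 were called higher, against 4.05% of all tested models. At any size, 45.6% of all tested models were lower in library 3. Of the 12 tested neural crest models 10 were higher in library 3 (477 CPM in library 3 and 372 CPM in library 1, with SOX10 at 0 reads on 4L and 4S). Of these 12, 0 were called in either direction. Endoderm markers summed to 222 CPM in library 3 and 262 CPM in library 1, with 9 of 10 models lower in library 3. Of the 10, 1 was called lower and 0 higher, against 4.09% and 4.05% of all tested models. Multiciliated markers summed to 55.4 CPM in library 3 and 60.2 CPM in library 1, with CCNO at 0 reads on 1S and 1L. Of their 5 tested models 4 were lower in library 3, against 45.6% of all tested models, and 0 were called. The 1 higher model, DNAI1 on 1L, led the sum (33.2 CPM in library 3 and 23.7 CPM in library 1). Ionocyte markers summed to 1.44 CPM in library 3 and 2.67 CPM in library 1, with 2 of 11 models, both of FOXI1, at 0 reads. Of their 4 tested models 1 was called lower and 0 higher, against 4.09% and 4.05% of all tested models. Neural plate markers summed to 32.3 CPM in library 3 and 29.3 CPM in library 1, with PAX6 on 7S at 0 reads. This sum does not speak for single models. Of 14 tested, 4 were called lower and 2 higher in library 3, against 4.09% and 4.05% of all tested models. Muscle markers, led per length by MYL1 on 9_10L at 3359.6 ± 599 RPKM (SD, n = 2), summed to 18400.4 CPM in library 3 and 18220.6 CPM in library 1. Of their 12 tested models 7 were higher and 5 lower in library 3, and 0 were called. In the exact binomial test 11 had an adjusted p under 0.05 at any fold, against 53.1% of all tested models, so this sum hides opposite shifts. The muscle median of 430.4 RPKM stood against 0.404 RPKM for the epidermal factors. Contractile and structural genes fill much of the muscle list, while the factors are all regulators, so the lists are of unlike classes. The regulators in the muscle list, MYOD1 and MYF5, lay between 31.5 RPKM (MYF5 on 3S) and 510 RPKM (MYOD1 on 4S). KRT8 on 2L, a structural gene of epithelia, stood at 501 RPKM, in a list whose median was 0.0857 RPKM. Without control caps these levels are not a response to xnr2.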

How the data were processed

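Polyadenylated RNA of 2 libraries of xnr2 caps was sequenced, per the labels' protocols. Per the submitters' processing notes, FastQC, STAR 2.4.0k, HOMER and edgeR were used. Per the file headers, the authors counted exon reads per Mayball gene model (assembly version 9.1) with HOMER and rescaled them, so the deposited signal is a read count times 1 constant per library. How multiply mapped reads were handled is not stated in the sources. Dividing by the value of 1 read (0.715 in library 3, 0.808 in library 1) gave whole reads, within 0.05, for 100.0% of nonzero values. The 2 further libraries named in the header were not analysed here, and 0 columns of other samples were used. Models without a symbol (519) took 1.34% of reads in library 3 and 1.29% in library 1 and stayed in the totals.

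CPM and RPKM were computed on total exon reads. Libraries were compared per model by an exact binomial test (scipy 1.17.1) over the whole table. With a single group there is no contrast for a count model, so edgeR 4.0.16 and DESeq2 1.42.0 served only for scaling factors and for the common biological coefficient of variation (0.262). The test was also run on simulated reads. Members and lists were chosen with earlier results of these data known. Every member was named. Of other lists, the 3 models highest per length and the 3 called models with the largest ratio were named, and OVOL2, the higher CDH1 model and models at 0 reads were added after their values were seen. A single item that this rule names is not reported here. Alternatives covered scaling, read minimum, pseudocount, level threshold, exon length and adding up models.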

Additional observations from a re-analysis of the deposited data

How the results depend on the processing

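The number of epidermal factor models at the level threshold in both libraries was 8 of 20 and became 13 at 0.5 CPM and 4 at 2 CPM. With a single library it lay between 9 (library 3) and 14 (library 1), and the median level between 0.941 and 2.24 CPM. The median per kilobase of exon was 0.404 RPKM, a different unit. The 7 models called lower in library 3 became 3 of 10 with a minimum of 100 reads. They became 3 of 9 after adding the models of each symbol, with or without KLF5 on chromosome 8 (chosen after seeing the data). Fewer models enter either count, and the matching shares over the whole transcriptome are not given here. With TMM factors the 7 models called lower became 8, as KLF5 on 8S passed 2-fold (log2 ratio -1.01). The other settings under which calls were recounted (DESeq2 size factors, no read minimum, exon length classes) changed no call of the 19 models, and no setting turned a direction. Calls were not recounted with a pseudocount of 0.5 or 1 CPM, which shrinks the ratios of low models. All 7 models called lower lay below 1 CPM in library 3. Both TFAP2C models, KLF5 on 8L and GRHL1 on 5L lay at 2.24 CPM or less in library 1. With 1 CPM added their ratios would fall short of 2-fold, so their calls depend on the pseudocount. Both GRHL3 models and KLF5 on 2S lay at 5.06 CPM or more in library 1, and would stay past 2-fold with 1 CPM added. The median log2 ratio was -0.80 with 0.1 CPM, -0.65 with 0.5 CPM and -0.53 with 1 CPM.

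Read counts from 3 to 19 in library 3 limit the ratios of TFAP2C, GRHL3, KLF5 on 8L and the S copies of TP63, TFAP2A and TFAP2B. The library comparison needs both libraries, so it has no value without either. No paired analysis was possible because there is 1 group.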
